A study of Mus musculus with 24 samples.

Results

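Primary mouse embryonic fibroblasts with an intact Ddit3 gene, the gene of the transcription factor CHOP, were compared after 4 h of tunicamycin and without treatment. The comparison takes the 4 arrays labelled as wild type cells after 4 h of tunicamycin and the 4 labelled as untreated wild type cells, 8 of the 24 arrays of the study, each set lettered A to D. It covers every probe set with a single gene symbol, 10833 of the 12488 on the array. The study as a whole also followed wild type cells at 8 h and CHOP-/- cells at the same times, with 4 arrays in each of 6 groups. Per the labels, tunicamycin was given at 2 µg/ml, and untreated arrays A, B and C came from cells at passage 3. No passage is stated for the other arrays in the labels used here. No label names cells given solvent alone or a time for the untreated cells, so a change after tunicamycin and a change with time or handling cannot be told apart. Whether the letters stand for separate cultures is not stated, and p-values therefore describe the spread between these samples alone, which may be technical.

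Tunicamycin stops the first step of N-linked glycosylation, so that newly made secretory proteins fail to fold in the endoplasmic reticulum (ER). Cells answer through the unfolded protein response, in which IRE1 splices Xbp1 mRNA, ATF6 is cut and released from the membrane, and PERK phosphorylates eIF2α and thereby favours translation of ATF4. XBP1 and ATF6 act on genes of folding and degradation, and ATF4 acts on genes of amino acid supply, on Ddit3 and on genes that feed back on the response.

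The values are deposited probe set signals, linear and scaled before deposit so that the trimmed mean of each array lies between 250.1 and 250.2. The median signal was 53.4 to 65.8 in the untreated arrays and 48.2 to 72.6 in the 4 h arrays. Signals are given as deposited, in the order of arrays A, B, C and D, and each mean is given with its SD over 4 arrays. Each log2 change is the mean at 4 h less the mean of untreated cells after addition of 5.7 to the signal and quantile normalization, with its standard error (SE) from limma. A gene was called at a Benjamini-Hochberg adjusted p under 0.05 over the 5691 genes whose mean level over all 24 arrays passed a filter at a signal of 27.7. Treated arrays counted in that mean, so a gene low in untreated cells could pass through them. In bulk RNA, fewer cells of a type and less RNA per cell cannot be told apart. Of 17 fibroblast marker genes 16 lay above 27.7 in all 8 arrays, and the exception, Vim, lay under it in 7. The summed deposited signal of the markers was 33345 to 39442 untreated and 27487 to 32981 at 4 h. None of 16 tested fibroblast markers was called, with a median change of −0.19 log2 after normalization. Of the markers of other cells, 7 of 11 epithelial, 4 of 9 endothelial, 5 of 12 neural, 2 of 16 leukocyte and 5 of 17 skeletal and cardiac muscle genes lay under 27.7 in all 8. Above it in all 8 lay 2 epithelial, 2 endothelial, 4 neural, 7 leukocyte, 6 skeletal and cardiac muscle and all 10 smooth muscle genes. Some of these were bright, such as the muscle gene Acta1 (1726.7 or more) and the neural gene Tubb3 (1235.3 or more). The summed leukocyte signal differed by letter, with 3138, 5215, 823 and 1173 untreated and 2942, 4906, 810 and 948 at 4 h, so that arrays A and B were high and arrays C and D low at both times. None of 9 tested leukocyte markers was called.

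At 4 h 102 genes rose and 19 fell. These were 1.79% and 0.334% of the genes tested, and 2.13% together. A change of at least 2-fold was called for 41 genes upward and 6 downward, 0.826% of the genes tested. The median change over all tested genes was −0.024 log2, with 2536 genes above 0 and 3155 below. The scaling and the quantile normalization hold this balance near 0, so a shift common to all genes could not be seen. The normalized values of the 4 arrays of each group did not overlap for 394 genes, 6.92% of those tested (4.53% higher and 2.39% lower), and for 114 of the 121 called genes. Without adjustment, 633 genes had a p under 0.05. With the array letter as a block 193 genes were called from the 8 arrays alone and 154 from all 24. Leaving out untreated array A gave 62 calls, and leaving out either the A or the D array at 4 h gave 77. Without 4 h arrays A and C together, which had the highest and the lowest median signal of the 8 arrays, 44 rises and 9 falls were called. Of the 121 calls, 51 held in each of the 8 fits that left out 1 array, 47 of them rises and 4 falls. For a named gene whose call did not, the array that mattered most is given beside it, and calls that other scalings or a fit of the 8 arrays alone ended are listed with the other settings. The calls nearest to the threshold were those of the immediate-early genes Dusp6 (−0.70 log2, adjusted p = 0.0474) and Myc (0.98, adjusted p = 0.0483). Just outside it lay the RNA editing enzyme gene Apobec1 (1.06, adjusted p = 0.0504) and the growth factor gene Tgfb3 (−0.61, adjusted p = 0.0507), both called with the letter as a block in the 8 arrays (adjusted p = 0.0434 and 0.0223) and in 1 or 2 fits that left out 1 array (adjusted p = 0.0195 without 4 h array C and 0.0155 without 4 h array C), and with array weights (adjusted p = 0.0208 and 0.0288).

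**Figure D1:**
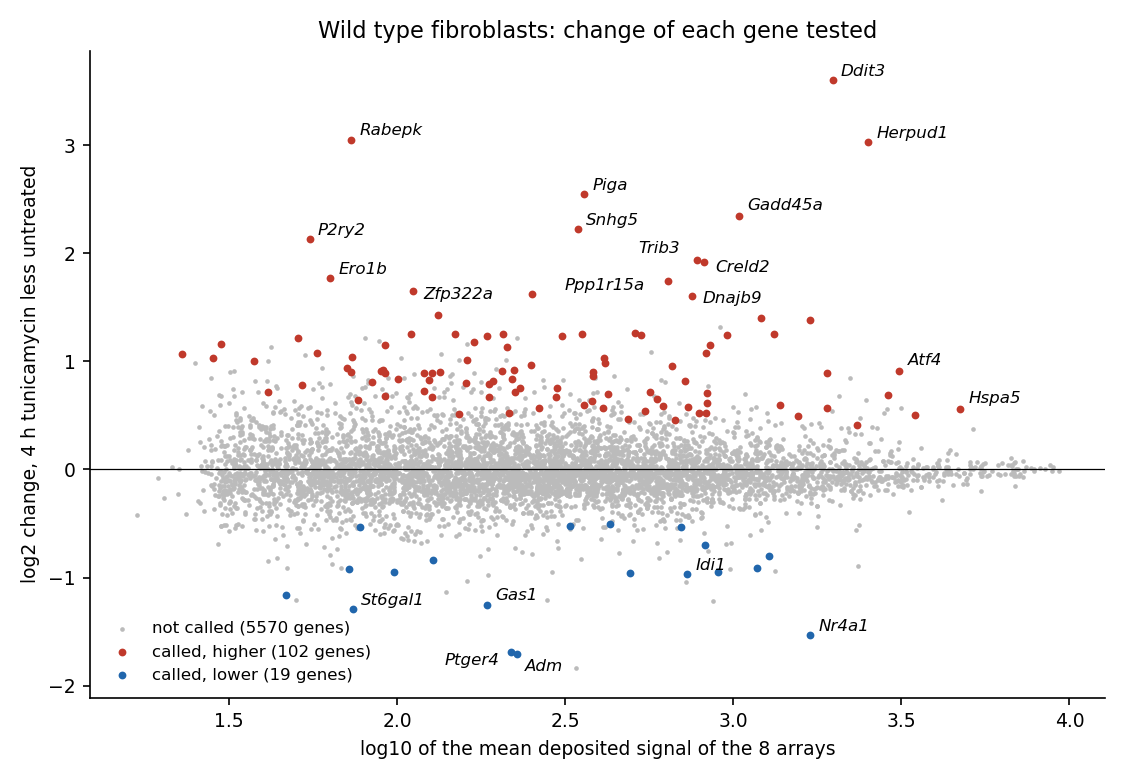
Log2 change of each of the 5691 tested genes, 4 h tunicamycin less untreated, against the mean level of the gene, with 1 point per gene. The 102 called rises reach 3.60 for Ddit3, while the 19 called falls reach −1.71 for Adm.

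Of the ER chaperones and folding enzymes, 8 of 25 tested genes rose and none fell, with a median change of 0.24 log2 against −0.024 for all tested genes. Beside this and each later list count stand the 1.79% of all tested genes that rose and the 0.334% that fell. Hspa5, which encodes the abundant chaperone BiP, had signals of 3577.3, 4603.4, 4283.7 and 3683.2 untreated and 4638, 5875.4, 6172.6 and 5087.3 at 4 h. The groups did not overlap, although the lowest treated array exceeded the highest untreated array by little. Its rise of 0.56 log2 (SE 0.101, adjusted p = 0.00226) took the mean from 4037 ± 489 to 5443 ± 706. The call ended with each array centred on its median (adjusted p = 0.557), with the deposited scaling kept (adjusted p = 0.111) and without 4 h arrays A and C together (adjusted p = 0.0721). Hsp90b1, which encodes the chaperone GRP94, went from 2473.1, 2583.5, 2450.7 and 2825.5 to 3696.3, 4388.6, 2802.3 and 3975.1, with 4 h array C the lowest treated array and just below untreated array D. It was not called (0.57, adjusted p = 0.16), but was called without 4 h array C (adjusted p = 0.0362) and with the letter as a block in the 8 arrays (adjusted p = 0.0327). Serpinh1, the collagen chaperone, had mean signals of 4586 ± 337 and 4233 ± 517 (−0.01, adjusted p = 0.996).

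Other folding genes changed by more. Creld2, a disulfide-handling protein of the ER, had signals of 284.3, 391.3, 319.4 and 352.8 untreated and 1354.9, 1333.2, 938.5 and 1591.6 at 4 h. All treated arrays lay far above all untreated arrays, and the rise was 1.92 log2 (SE 0.251, adjusted p = 3.72e-05). Dnajb9, a J-domain partner of BiP, went from 344.1, 357.8, 357.4 and 396.4 to 1559.6, 1055.2, 1091 and 857.9, a rise of 1.60 log2 (SE 0.22, adjusted p = 6.64e-05). Array A gave its highest treated signal, and another Dnajb9 probe set rose by 2.31 (adjusted p = 0.00447). Ero1b, an oxidase that drives disulfide formation, rose from 23.65 ± 4.6 to 102.7 ± 47, or by 1.77 log2 (SE 0.356, adjusted p = 0.0061). Its signals were under 27.7 in 3 of 4 untreated arrays, so the size is a fitted value, and its treated arrays ranged from 43.3 in array C to 145.3 in array B. The related oxidase gene Ero1a rose by 0.61 log2 (adjusted p = 0.0251) from 658.1 ± 86.1 to 1013 ± 166. That call ended in 5 of 8 fits that left out 1 array (adjusted p up to 0.12, without 4 h array D). Pdia4, a protein disulfide isomerase, rose by 1.25 log2 (adjusted p = 0.000343) from 775.6 ± 127 to 1862 ± 430. Manf, a secreted protein of the ER stress response, rose by 0.89 log2 (adjusted p = 0.000647) from 1348 ± 139 to 2455 ± 232. Dnajc3, the BiP co-chaperone also called p58IPK, rose by 1.15 log2 (adjusted p = 0.00901) from 534 ± 140 to 1169 ± 199, a call that ended without untreated array A (adjusted p = 0.0532).

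**Figure D2:**
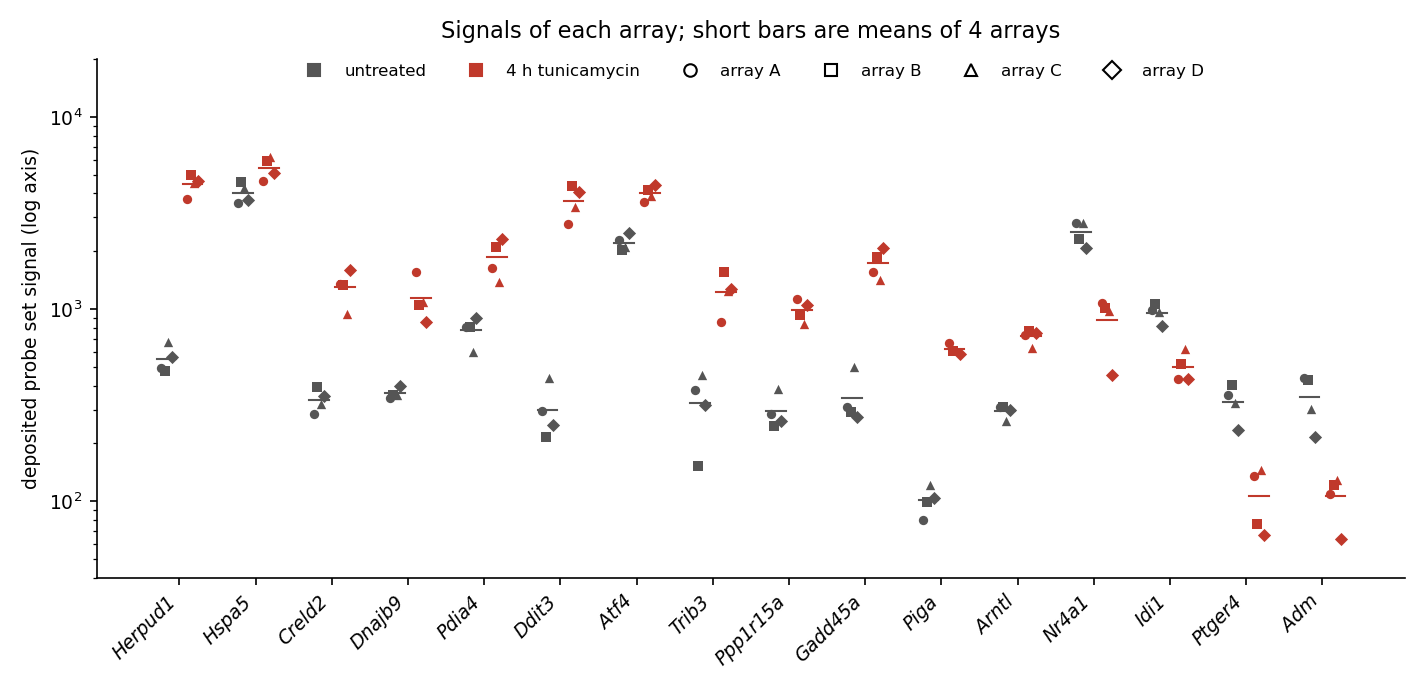
Deposited signal (log axis) of 16 genes in each of the 4 untreated and 4 treated wild type arrays, with 1 point per array. For each of the 16 genes the treated points lie wholly above or wholly below the untreated points, from the small step of Hspa5 (mean 4037 ± 489 to 5443 ± 706) to the large step of Ddit3 (299.7 ± 97.4 to 3652 ± 722).

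Promoters were searched for the letters of known stress elements, on both strands, in RefSeq windows of 250 bases before to 50 after each gene's start (GRCm38.p6). The ER stress element ERSE, bound by ATF6 and XBP1 with NF-Y, was searched as CCAAT and CCACG with 9 bases of any kind between them and was found in 39 of 32851 windows (0.119%) and in 11 of 4622 tested genes with a window (0.238%). Of 85 called rises with a window, 4 held it: Hspa5, Creld2, Ero1b and Dnajc3, all in the folding list. The other 7 tested holders were not called, among them Hsp90b1 with 2 matches, Canx (−0.25 log2) and Pdia6 (0.38, called with the letter as a block in the 8 arrays, adjusted p = 0.0446). The related ERSE-II, searched as ATTGG and CCACG with 1 base of any kind between them, was found in 12 windows (0.0365%) and in 7 tested genes, of which Herpud1 and Rcl1 rose. The UPR element TGACGTGG was in 222 windows (0.676%) and in 56 of the 4622 tested genes (1.21%). Of the 85 called rises with a window, 1 held it, Stx5a. The site of C/EBP-ATF pairs, TGATGCAA, was in 294 windows (0.895%) and in 34 of the tested genes (0.736%). Of the 85 called rises, 1 held it, Herpud1, which also holds the ERSE-II. The windows of Ddit3, Trib3 and Dnajb9 held none of these letters. The 250 bases before the start are printed for the 5 called folding or degradation genes that held an ERSE or ERSE-II, so that the place of each element can be seen; Ero1b and Dnajc3 were added after their matches were seen. Capitals mark the fixed letters of each match, and all 5 genes are on the plus strand. They cover chr8:94386179-94386428 (Herpud1), chr2:34771840-34772089 (Hspa5), chr15:88819396-88819645 (Creld2), chr13:12565633-12565882 (Ero1b) and chr14:118937682-118937931 (Dnajc3).
Herpud1: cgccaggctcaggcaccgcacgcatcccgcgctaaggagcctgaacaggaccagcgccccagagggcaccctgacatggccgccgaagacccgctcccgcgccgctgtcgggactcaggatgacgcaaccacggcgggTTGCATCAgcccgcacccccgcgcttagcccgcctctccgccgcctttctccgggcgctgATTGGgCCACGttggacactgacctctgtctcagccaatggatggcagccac
Hspa5: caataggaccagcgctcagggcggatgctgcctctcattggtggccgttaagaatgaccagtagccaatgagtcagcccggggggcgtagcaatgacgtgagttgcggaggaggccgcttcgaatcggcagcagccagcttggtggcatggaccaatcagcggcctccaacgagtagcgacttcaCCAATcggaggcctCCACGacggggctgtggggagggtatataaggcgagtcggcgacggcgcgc
Creld2: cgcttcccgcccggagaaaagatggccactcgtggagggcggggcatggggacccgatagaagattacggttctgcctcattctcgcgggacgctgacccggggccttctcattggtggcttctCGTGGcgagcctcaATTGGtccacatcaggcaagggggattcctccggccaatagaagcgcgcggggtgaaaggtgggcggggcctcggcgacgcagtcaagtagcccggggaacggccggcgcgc
Ero1b: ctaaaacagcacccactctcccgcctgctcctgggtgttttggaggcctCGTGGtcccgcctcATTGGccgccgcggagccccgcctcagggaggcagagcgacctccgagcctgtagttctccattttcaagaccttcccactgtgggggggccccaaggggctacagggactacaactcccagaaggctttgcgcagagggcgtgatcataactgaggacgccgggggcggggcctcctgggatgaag
Dnajc3: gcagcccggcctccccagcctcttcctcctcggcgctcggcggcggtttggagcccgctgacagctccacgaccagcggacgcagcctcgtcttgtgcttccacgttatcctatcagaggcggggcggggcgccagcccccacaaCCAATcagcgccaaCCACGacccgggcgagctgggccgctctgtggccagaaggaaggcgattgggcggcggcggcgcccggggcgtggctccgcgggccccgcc

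Counted from the start, the ERSE lay at −65 to −47 in Hspa5, −126 to −108 in Creld2, −201 to −183 in Ero1b and −105 to −87 in Dnajc3. It was on the gene's own strand in Hspa5 and Dnajc3 and on the opposite strand in Creld2 and Ero1b. In Herpud1 the ERSE-II lay at −52 to −42 and the C/EBP-ATF letters at −112 to −105. Among the 4 called holders of an ERSE the rise ranged from 0.56 log2 for Hspa5 to 1.92 for Creld2.

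In ER-associated degradation, which sends misfolded proteins to the proteasome, 3 of 15 tested genes rose and the median change was 0.22 log2. Herpud1, a membrane protein that organises the degradation complex, had signals of 493.6, 474.1, 670.2 and 564.8 untreated and 3738.9, 5003.9, 4536.1 and 4667 at 4 h. Every treated array was several times the highest untreated array, and the rise of 3.03 log2 (SE 0.107) had the smallest adjusted p of the comparison, 9.04e-16 by limma. Sel1l, the scaffold of the HRD1 ubiquitin ligase, rose by 0.90 log2 (adjusted p = 0.000384) from 261.5 ± 34.9 to 502.4 ± 59.7, and its other probe set by 1.93 (adjusted p = 0.000321). Derl1, a channel protein of the pathway, rose by 0.54 log2 (adjusted p = 0.0355) from 442.5 ± 36.8 to 653.6 ± 59.3. That call ended in 6 of 8 fits that left out 1 array (adjusted p up to 0.128, without 4 h array A), and the other Derl1 probe set had a change of 0.08 (adjusted p = 0.981). The mannosidase-like gene Edem1 (0.42, adjusted p = 0.288) and Vcp, the ATPase that extracts proteins from the membrane (0.17, adjusted p = 0.68), were not called.

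Among the sensors of the response and the genes of the XBP1 and ATF6 branch, 3 of 12 tested genes rose, with a median of 0.28 log2. Eif2ak3, which encodes PERK, went from 47.4, 54.2, 43.5 and 45.8 to 144.3, 102.1, 64.7 and 82.4. The untreated arrays lay close together and the treated arrays spread, with array A highest and array C lowest. The rise was 0.90 log2 (SE 0.216, adjusted p = 0.0259), and the call ended in 5 of 8 fits that left out 1 array (adjusted p up to 0.117, without 4 h array A). Traf2, an adaptor that binds activated IRE1, rose by 0.75 log2 (adjusted p = 0.00294) from 166.1 ± 11.6 to 296.7 ± 48.8, a call that ended when only the 8 compared arrays were fitted (adjusted p = 0.0725). Xbp1 had signals of 1373.5, 1274.2, 1412.1 and 1123.7 untreated and 1535.4, 2175.1, 1989.5 and 1557.3 at 4 h. It rose by 0.49 log2 (SE 0.129, adjusted p = 0.0432), and the call ended in 7 of 8 fits that left out 1 array (adjusted p up to 0.166, without 4 h array B). Whether the Xbp1 probe set tells the splice forms apart was not tested. For Atf6 (0.47, adjusted p = 0.2), the calcium regulator Wfs1 (0.56, adjusted p = 0.126) and Nfya, a subunit of NF-Y (0.86, adjusted p = 0.142), no change was called. Under the alternatives run, Nfya was called with the letter as a block in the 8 arrays (adjusted p = 0.0172) and Wfs1 with array weights (adjusted p = 0.0374).

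Of the protein-coding genes called, 2 pairs are next to each other in the GRCm38.p6 gene table, and each pair holds a gene of the response. How often called genes would be neighbours by position alone was not computed, so the count is a description. Rabepk, which encodes a RAB9 effector, is the neighbour of Hspa5, and Ccdc117, a coiled-coil protein gene, is the neighbour of Xbp1. Rabepk had signals of 8.9, 10.3, 15.9 and 7.7 untreated, all under 27.7, and of 107.1, 132.3, 146.5 and 153.8 at 4 h. Against the filter signal the rise was at least 4.68-fold (fitted 3.05 log2, adjusted p = 2.76e-07). Ccdc117, from 16.6 ± 5.7 to 40 ± 11, also lay under 27.7 in all untreated arrays and rose at least 1.41-fold (fitted 1.03 log2, adjusted p = 0.015). That call ended in 3 of 8 fits that left out 1 array (adjusted p up to 0.0644, without untreated array A). Both Rabepk and Ccdc117 entered the test only through arrays other than the untreated wild type ones. Their adjusted p is therefore no separate support for a rise.

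Of the transcription factors and feedback genes of the PERK and ATF4 branch, 10 of 20 tested rose and none fell, and the median was 0.55 log2. Ddit3 had signals of 296.2, 215.5, 437 and 249.9 untreated and 2773.9, 4396.6, 3379.7 and 4059.1 at 4 h. Untreated array C was the highest of its group and every treated array was several times that value, a rise of 3.60 log2 (SE 0.35, adjusted p = 4.71e-07). Atf4 itself, which is governed mostly through its translation, went from 2280, 2018.1, 2102.2 and 2475.6 to 3611.6, 4163.9, 3895 and 4404.9. The arrays within each group were close, and the rise was 0.91 log2 (SE 0.097, adjusted p = 1.99e-06). Trib3, a pseudokinase that restrains AKT and ATF4, went from 377.5, 152.7, 455.4 and 318.1 to 854.9, 1564.4, 1236.4 and 1278, a rise of 1.94 log2 (adjusted p = 6.64e-05). Array B was the lowest untreated and the highest treated. Ppp1r15a, which encodes GADD34 and directs the removal of phosphate from eIF2α, went from 286.2, 245.5, 383 and 261.3 to 1132.9, 929.4, 834.1 and 1052.6, a rise of 1.74 log2 (adjusted p = 4.44e-06) with no overlap of the groups.

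Gadd45a, a stress gene of growth arrest, went from 310.7, 292.4, 500.8 and 274.5 to 1558.9, 1867.7, 1420.2 and 2086.1, a rise of 2.34 log2 (SE 0.23, adjusted p = 4.8e-07). Its relative Gadd45b rose by 1.24 log2 (adjusted p = 0.0234), but untreated array C at 983.5 exceeded 4 h array A at 869.3. The Gadd45b call ended in 5 of 8 fits that left out 1 array (adjusted p up to 0.111, without untreated array A). Txnip, the thioredoxin inhibitor, rose by 1.08 log2 (adjusted p = 1.96e-05) from 522.9 ± 57 to 1131 ± 179, while its other probe set had a change of −0.10 (adjusted p = 0.996). Cebpg, a C/EBP partner of ATF4, rose by 0.67 log2 (adjusted p = 0.00209) from 224.2 ± 11.3 to 368 ± 9.36. The secreted glycoprotein gene Stc2 (0.78, adjusted p = 0.036) and the mTOR inhibitor gene Ddit4 (0.71, adjusted p = 0.0311) also rose. Both calls ended with the letter as a block in the 8 arrays (adjusted p = 0.0523 and 0.0814) and in most fits that left out 1 array, with an adjusted p of up to 0.129 for Stc2 (without untreated array D) and 0.157 for Ddit4 (without 4 h array D). Atf3, a stress factor of the same branch, was variable, with 473, 207.4, 954.6 and 301.8 untreated and 402.9, 410, 1274.4 and 508.3 at 4 h. Array C was highest in both groups, the groups overlapped, and the change was not called (0.42, adjusted p = 0.903).

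Genes of amino acid supply, targets of ATF4, lay above 0 in 12 of 14 cases with 2 calls and a median of 0.24 log2. Slc3a2, the heavy chain of several amino acid transporters, rose by 0.69 log2 (adjusted p = 0.000867) from 2249 ± 162 to 3522 ± 462, a call that ended with each array centred on its median (adjusted p = 0.0758). Psph, the last enzyme of serine synthesis, rose by 0.60 log2 (adjusted p = 0.0367), and its call ended in 6 of 8 fits that left out 1 array (adjusted p up to 0.151, without 4 h array D). Asns, asparagine synthetase, had signals of 2812.9, 2747.1, 3051.4 and 2940.2 untreated and 2984.4, 2974.1, 3456.8 and 3959.4 at 4 h (0.25, adjusted p = 0.233, not called). Of the cytosolic aminoacyl-tRNA synthetases, which charge tRNA with amino acids, 18 of 19 lay above 0 (median 0.21), and Wars rose by 0.52 log2 (adjusted p = 0.0286). The Wars call ended in 5 of 8 fits that left out 1 array (adjusted p up to 0.125, without 4 h array D). The exception below 0 was Mars1, the neighbour of Ddit3 in the GRCm38.p6 gene table, which stood at 802.1 ± 70.5 untreated and 583.4 ± 69.3 at 4 h with no overlap of the groups (−0.47, adjusted p = 0.186, not called).

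N-glycosylation, the process that tunicamycin blocks, had a median of 0.04 log2 over 26 tested genes. Alg2, an early mannosyltransferase, rose by 0.72 log2 (adjusted p = 0.0258) from 417 ± 43.6 to 715.1 ± 176. That call ended with the letter as a block in the 8 arrays (adjusted p = 0.0563) and in 6 of 8 fits that left out 1 array (adjusted p up to 0.118, without 4 h array A). St6gal1, a sialyltransferase of the Golgi, went from 119.9, 70.4, 105.1 and 131.9 to 40.7, 32.2, 41 and 50.1, and fell by 1.29 log2 (SE 0.198, adjusted p = 0.000343) with no overlap. Dpagt1, the enzyme that tunicamycin inhibits, was not called (0.11, adjusted p = 0.892). In the synthesis of glycosylphosphatidylinositol anchors 1 of 12 tested genes was called. It was Piga, a subunit of the first enzyme of that pathway, with signals of 80, 98.9, 121.5 and 103.9 untreated and 669.2, 605.1, 609.7 and 585.8 at 4 h. The treated arrays were nearly level with one another, and the rise was 2.55 log2 (SE 0.151, adjusted p = 4.65e-11), with 2.36 (adjusted p = 4.21e-07) in its other probe set. The median of that list was −0.01. Among 53 genes of ER translocation and ER-Golgi transport 1 was called, the Golgi SNARE gene Stx5a (0.52, adjusted p = 0.0367), and the median was 0.01. The Stx5a call ended in 6 of 8 fits that left out 1 array (adjusted p up to 0.145, without 4 h array B).

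**Figure D3:**
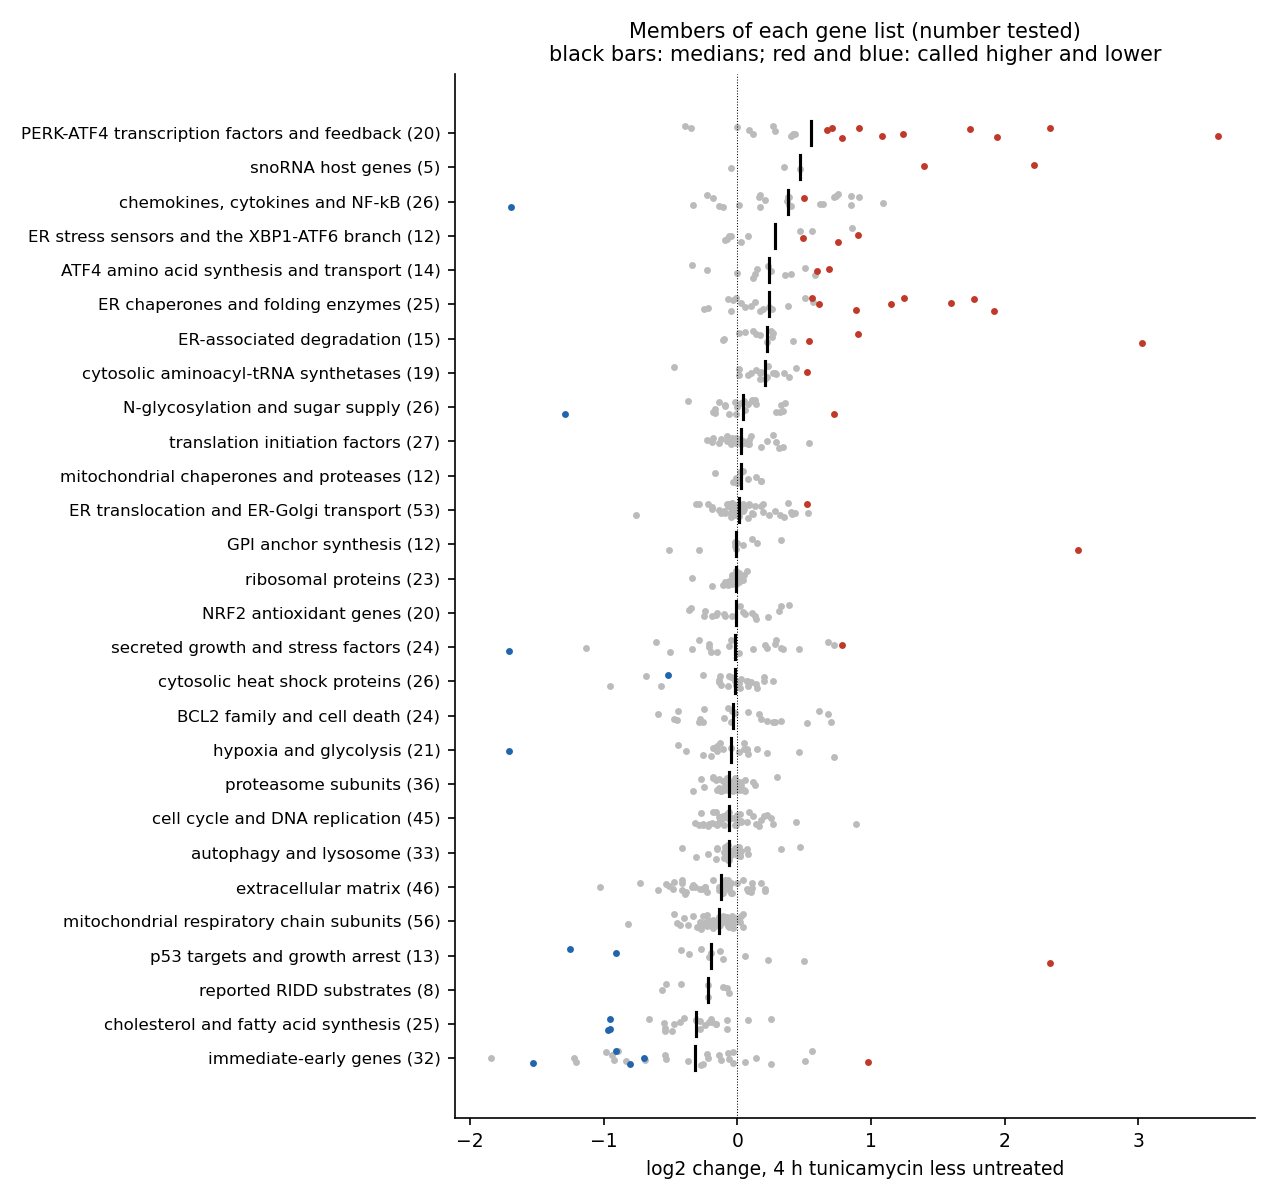
Log2 change at 4 h of every tested member of 28 gene lists, with 1 point per gene, and a bar at the median of each list. The PERK-ATF4 genes have the highest median (0.55) and the immediate-early genes the lowest (−0.32).

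The largest falls were those of Adm, Ptger4 and Nr4a1. Adm, which encodes the vasodilator peptide adrenomedullin, went from 439.6, 429.6, 303 and 216.5 to 109.7, 120.9, 129.3 and 63.8, and fell by 1.71 log2 (SE 0.295, adjusted p = 0.00143). Array D was the lowest of both groups, and the groups did not overlap. Ptger4, a prostaglandin E2 receptor gene, went from 355.3, 404.7, 325 and 235.1 to 135.7, 76.3, 145.2 and 66.8, and fell by 1.69 log2 (adjusted p = 0.0113), a call that ended without 4 h array D (adjusted p = 0.0543). Gas1, a growth arrest gene of the cell surface, fell by 1.25 log2 (adjusted p = 0.00258) from 255.9 ± 36.6 to 113.6 ± 42, a call that ended when only the 8 compared arrays were fitted (adjusted p = 0.092). Fam102a fell by 0.92 log2 (adjusted p = 0.00258) from 95.17 ± 18.7 to 48.4 ± 7.82. Nr2f1, an orphan nuclear receptor gene, fell by 1.16 log2 (adjusted p = 0.02), and Nrep, a gene first found in neurons, by 0.96 (adjusted p = 0.0133). The Nr2f1 call ended in 5 of 8 fits that left out 1 array (adjusted p up to 0.0823, without untreated array A), and the Nrep call in 2 of 8 fits that left out 1 array (adjusted p up to 0.0702, without 4 h array A).

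Immediate-early genes, which growth factors switch on within minutes, had 4 falls and 1 rise among 32 tested, with 26 below 0 and a median of −0.32 log2. Nr4a1, a nuclear receptor gene, went from 2813.2, 2316.3, 2819.2 and 2070.9 to 1079, 1011.6, 982.6 and 452.3. All treated arrays lay well below the untreated arrays, with array D the lowest of both groups, and the gene fell by 1.53 log2 (SE 0.377, adjusted p = 0.031). Id1, an inhibitor of basic helix-loop-helix factors, fell by 0.80 log2 (adjusted p = 0.0229), Btg2, an antiproliferative gene, by 0.91 (adjusted p = 0.0355) and Dusp6, a phosphatase of ERK, by 0.70. Myc, a transcription factor gene of growth, rose from 278.5 ± 79.4 to 554.9 ± 122. None of these 5 calls held in all 8 fits that left out 1 array, with an adjusted p of up to 0.15 for Nr4a1 (without 4 h array D), 0.0967 for Id1 (without 4 h array A), 0.158 for Btg2 (without untreated array A), 0.166 for Dusp6 (without 4 h array B) and 0.195 for Myc (without 4 h array A). The Myc call ended in each of the 8 fits, that of Dusp6 in 7, Btg2 in 6, Nr4a1 in 5 and Id1 in 3. With the letter as a block in all 24 arrays Myc was not called (adjusted p = 0.056). Fos had the lowest change of the list and was not called (−1.84, adjusted p = 0.214), except with the letter as a block in the 8 arrays (adjusted p = 0.0157).

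In cholesterol and fatty acid synthesis 3 of 25 tested genes fell, 23 lay below 0 and the median was −0.31 log2. Idi1, an isomerase of isoprenoid building blocks, went from 990.8, 1060.7, 961.2 and 813.7 to 434.5, 519.9, 619.1 and 432.3, and fell by 0.97 log2 (SE 0.232, adjusted p = 0.0258). Hmgcs1, the enzyme that makes HMG-CoA, fell by 0.95 (adjusted p = 0.0424), and Elovl6, a fatty acid elongase, by 0.95 (adjusted p = 0.0249). These calls did not hold in all 8 fits that left out 1 array, with an adjusted p of up to 0.0917 for Idi1 (without 4 h array A), 0.199 for Hmgcs1 (without 4 h array D) and 0.121 for Elovl6 (without untreated array A). They ended in 5 fits for Idi1, 6 for Hmgcs1 and 3 for Elovl6. Of 26 cytosolic heat shock genes, whose median was −0.02, Dnajb1, a partner of HSP70, fell by 0.52 log2 (adjusted p = 0.0394). That call ended with the letter as a block in the 8 arrays (adjusted p = 0.0531) and in 6 of 8 fits that left out 1 array (adjusted p up to 0.17, without untreated array D).

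Some lists had no called member at 4 h, where 2.13% of all tested genes were called, about 1 call or fewer in lists of these sizes. They were 46 genes of the extracellular matrix (37 below 0, median −0.12 log2), 45 of the cell cycle, 24 of the BCL2 family and cell death, 20 of the NRF2 antioxidant response, 36 proteasome subunits, 33 of autophagy and lysosome, 27 translation initiation factors, 23 ribosomal proteins and 12 mitochondrial chaperones and proteases. The medians of the lists other than the matrix lay between −0.06 and 0.03. With each array centred on its median in place of quantile normalization, the median of the matrix genes was −0.24 and that of the ribosomal proteins −0.18 in place of −0.01. Of 56 respiratory chain genes 51 lay below 0 with a median of −0.14 and no call. Col1a1, the chief collagen chain of fibroblasts, had mean signals of 8294 ± 1134 and 7408 ± 1070 (−0.00, adjusted p = 0.999). Reported targets of the IRE1 nuclease, whose mRNA is cut in ER stress, lay below 0 in 8 of 8 cases with a median of −0.22 and no call. Hgsnat, a lysosomal acetyltransferase gene, stood at 218.4 ± 13.6 and 155.6 ± 14.6 with no overlap (−0.53, adjusted p = 0.0794, and adjusted p = 0.0486 with the letter as a block in 24 arrays and 0.0454 with array weights). Bloc1s1, a widely used marker of that activity, stood at 306.6 ± 14.4 and 236.2 ± 16.4, also with no overlap (−0.42, adjusted p = 0.253).

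The size of the rises varied between letters. Over the 102 rises the median difference between arrays of the same letter was 0.96 log2 for A, 0.85 for B, 0.74 for C and 0.98 for D. Of these genes, 40 had their highest untreated value in array C, 40 their lowest treated value in array C, and 51 their smallest difference in letter C. Untreated array C gave the highest signal of its group for Ddit3, Trib3, Ppp1r15a, Gadd45a and Herpud1. Over the 19 falls the median differences were −1.15, −0.97, −0.93 and −0.75 in the same order. All 121 called genes had the same direction in 4 of 4 letters. The groups overlapped for just 7 of them, and groups without overlap must share their direction in every letter. With genes chosen by the same arrays, this count is therefore no separate evidence. Array C at 4 h also had the lowest median signal of the 8 arrays, 48.2, and its part in the smaller differences was not tested.

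Wild type cells at 8 h were set against the 4 h arrays, a contrast that shares those 4 arrays with the comparison of 4 h and untreated cells, so its values are given beside the earlier ones and not related to them by a test. Of the 102 genes that rose at 4 h, 16 rose again and 2 fell between 4 h and 8 h, where 4.13% of all tested genes were called, 2.09% higher and 2.04% lower. Among the genes that rose again were Creld2 (1.49 log2 from 4 h to 8 h, to a mean signal of 3717), Ero1b (1.98, to 391.7), Pdia4 (0.98, to 3852), Dnajc3 (1.09, to 2528), Sel1l (1.06, to 1051) and Rabepk (1.68, to 437.2). No change was called between the times for Ddit3 (0.27), Atf4 (−0.03), Ppp1r15a (0.28), Gadd45a (0.12), Herpud1 (0.06) and Piga (0.44). The rises that fell back were those of Txnip (−0.55, adjusted p = 0.0223), to a mean signal of 767.1, and of the transcriptional repressor gene Bcl6 (−0.85, adjusted p = 0.0244). At 4 h Bcl6 had risen by 0.82 (adjusted p = 0.0424), a call that ended with the letter as a block in the 8 arrays (adjusted p = 0.0933) and in 6 of 8 fits that left out 1 array (adjusted p up to 0.195, without untreated array A). Of the 19 falls 7 fell again, among them Nr4a1 (−3.21, to a mean signal of 88.93), Idi1 (−2.38, to 88.77), Id1 (−1.83, to 263.5), Ptger4 (−1.77, to 24.35) and Nrep (−1.61, to 105).

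**Figure D4:**
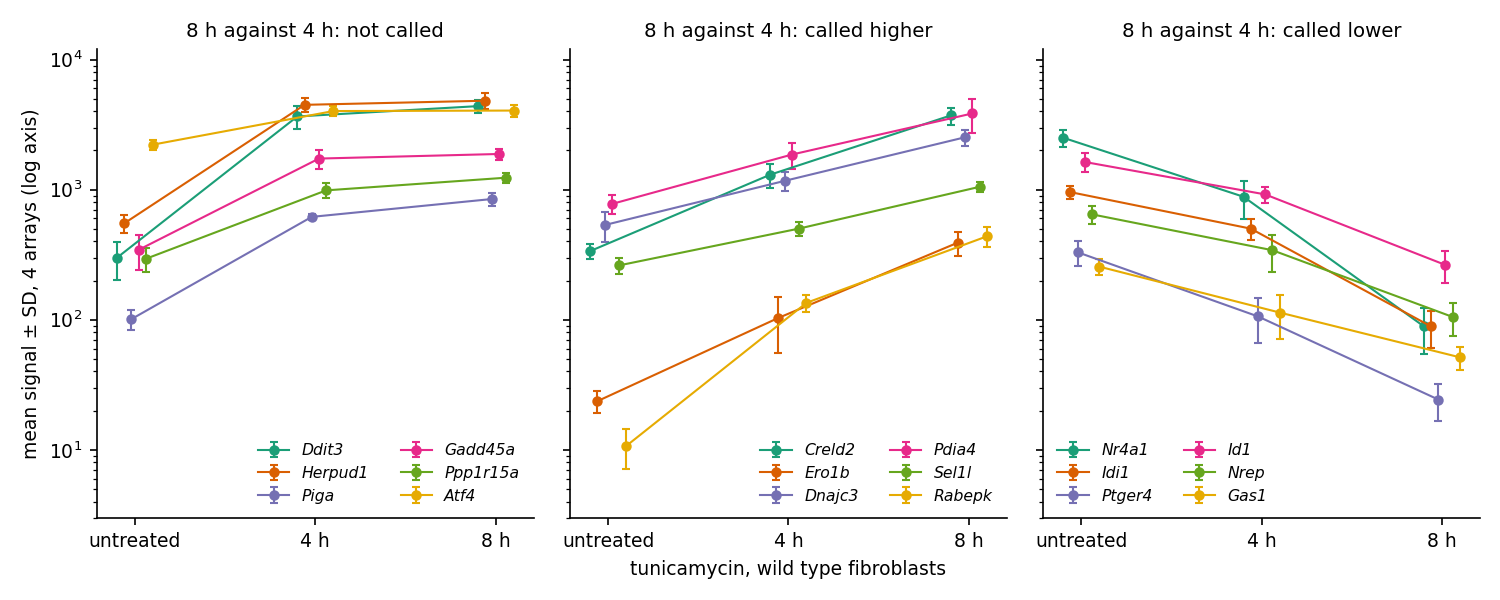
Mean deposited signal ± SD of 4 arrays (log axis) in untreated wild type cells and after 4 h and 8 h of tunicamycin, for 6 genes in each of 3 panels. Genes of the first panel were not called between 4 h and 8 h, while those called higher go on rising and those called lower go on falling, as Nr4a1 does from 881.4 ± 289 to 88.93.

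The same 4 h contrast in CHOP-/- cells called 86 genes, 1.51% of those tested. Its means came from no wild type array, while the normalization, the filter and the estimate of the spread were shared over all 24 arrays. Of the 102 wild type rises 40 were called higher there and 101 lay above 0, with a median of 0.58 log2, and of the 19 falls 6 were called lower and 19 lay below 0, with a median of −0.47. Since these genes were chosen by their wild type change, a smaller median in the other genotype is no measure of a difference. The difference of the responses was called by limma for 0 of 5691 genes, with 230 at an unadjusted p under 0.05 (4.04%) and a lowest adjusted p of 0.0942, for Ddit3 itself. For Ddit3 the response in CHOP-/- cells less that in wild type cells was −2.68 log2 (SE 0.495). Even a difference of that size was not called, so the lack of calls does not show that the responses were alike. Changes in CHOP-/- cells were 2.77 log2 for Herpud1, 0.93 for Atf4, 1.09 for Ppp1r15a, 1.34 for Trib3, 1.97 for Gadd45a and 1.90 for Piga. Of the folding genes they were 0.38 for Hspa5 (not called), 1.40 for Creld2, 0.92 for Dnajb9 and 0.78 for Pdia4. Other genes called in wild type cells were not called in CHOP-/- cells. Among them were Ddit3 (0.92), Ero1a (0.11), Alg2 (0.20), Nr4a1 (−0.38), Ptger4 (−0.44) and Hmgcs1 (−0.23).

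Symbols that start with Zfp, which belong to zinc finger proteins of many kinds, made up 13.7% of the called rises and 1.14% of the genes tested. This group was chosen after its values were seen, so its counts are a description. Of 89 such genes on the array 65 were tested, 14 rose (21.5% of the tested, against 1.79% of all genes) and none fell, with a median of 0.42 log2 and 53 above 0. The probe sets of Zfp930, Zfp97, Zfp51 and Zfp1 have names that end in _f_at. Whether they also read related genes was not tested, so the 14 rises may not all be separate. Zfp105 went from 83.2, 82.8, 81.7 and 88.8 to 228.7, 215.3, 192.9 and 215, a rise of 1.25 log2 (SE 0.121, adjusted p = 4.71e-07), with close arrays in each group. Zfp110 rose by 1.25 log2 (adjusted p = 4.45e-05) from 62.48 ± 15.1 to 157.9 ± 12.7. Zfp322a rose by 1.65 (adjusted p = 0.000343) from 48.12 ± 7.35 to 174.9 ± 86.7, with array A highest at 300.9. Not all 14 calls held in the 8 fits that left out 1 array. They ended in 6 fits for Zfp639 and Zfp703, in 5 for Zfp1 and Zfp51 and in 3 for Zfp30. Those of Zfp787 and Zfp942 ended in 2 and that of Zfp35 in 1. Other probe sets were not called for Zfp787 (0.27 and 0.06), Zfp1 (0.28) and Zfp30 (−0.22, signals under 27.7). That of Zfp930 rose by 1.10 (limma adjusted p = 0.00132). None of the 14 was called between 4 h and 8 h, 7 were called higher in CHOP-/- cells at 4 h, and all 14 lay above 0 there. The lowest value of the group was that of Zfp36 (−1.21, adjusted p = 0.0609), which encodes the mRNA-binding protein tristetraprolin. It was called with the letter as a block in the 8 arrays (adjusted p = 0.0468), with array weights (adjusted p = 0.0305) and in 1 fit that left out 1 array (adjusted p = 0.019 without untreated array B). Of 5 tested host genes of small nucleolar RNAs 2 rose, where 1.79% of all tested genes did. Snhg5 went from 131.5, 87.8, 198.6 and 73 to 568.5, 637.6, 358.9 and 697 (2.22 log2, adjusted p = 0.00567), and Snhg1 rose by 1.40 (adjusted p = 0.0249). The Snhg1 call ended in 5 of 8 fits that left out 1 array (adjusted p up to 0.106, without untreated array D). The host gene Gas5, with signals of 1825.6, 1426, 319.7 and 206.6 untreated and 2309.2, 2202, 264.2 and 420.2 at 4 h, followed the letters, being high in arrays A and B at both times, as the leukocyte markers were.

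**Figure D5:**
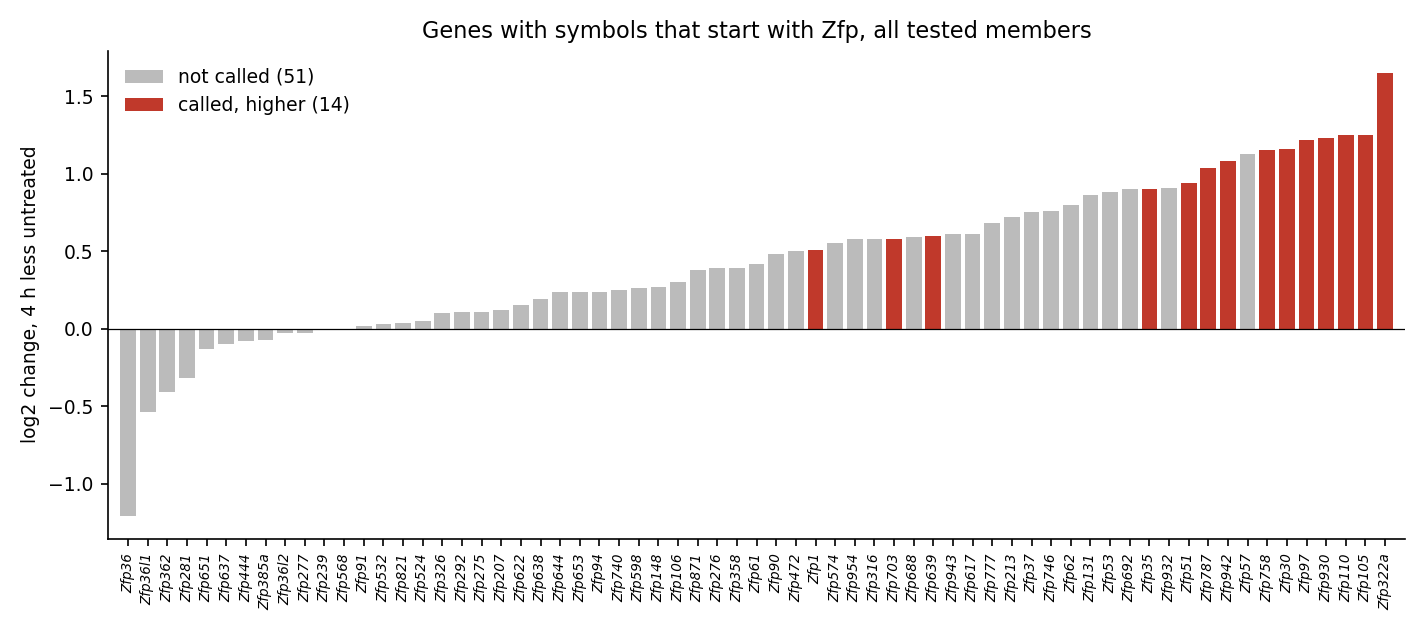
Log2 change at 4 h of all 65 tested genes with symbols that start with Zfp, as bars from 0 in order of size. The 14 called rises lie between 0.51 and 1.65, and no member was called lower.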

How the data were processed

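Values are the probe set intensity signals that the authors deposited, linear, 1 array per sample; the software and scaling behind them are not given in any source used here. Of 12488 probe sets 10833 had 1 gene symbol (8251 genes) in the platform annotation, 396 had several and 1237 none. Here 5.7 was added, log2 taken and all 24 arrays quantile normalized, 1 probe set kept per gene, that of highest mean signal, and genes at or under the 40th percentile of mean level left out. limma 3.58.1 (R 4.3.3) fitted 6 group means with an intensity trend and 18 residual degrees of freedom, with Benjamini-Hochberg adjustment over 5691 genes, and was tested on simulated data. Tables and plots used Python 3.11.15, numpy 2.4.6, pandas 2.3.3 and matplotlib 3.10.9. The labels do not say what the letters mark; deviations of same-letter untreated and 4 h arrays correlated at 0.314, 0.509, 0.553 and 0.551, all over 0.1, so the letter was used as a block beside the main fit. Named genes come from a rule: a set of stress response genes, the 25 largest rises and falls, up to 5 genes of smallest adjusted p and the brightest uncalled genes of each list, and genes next to the threshold. The members, lists and this rule were chosen with earlier results of these data known. Other scalings, filters, pseudocounts, probe set summaries, weights, blocks and fits without 1 array were also run.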

Additional observations from a re-analysis of the deposited data

Results flagged for a closer look

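Among the named genes, 9 of 178 sets of 4 arrays had 1 array far from the other 3, where chance alone flags about 1 set in 20. A low normalized log2 level was 11.32 for Asns in untreated array B, where the other 3 arrays lay between 11.51 and 11.53. Another was 5.51 for Elovl6 in 4 h array B, where the other 3 arrays lay between 6.21 and 6.30. Another was 9.51 for Id1 in 4 h array A, where the other 3 arrays lay between 9.94 and 9.96. Another was 8.83 for Nr4a1 in 4 h array D, where the other 3 arrays lay between 9.92 and 10.15. Another was 5.72 for Trp53i13 in 4 h array A, where the other 3 arrays lay between 6.20 and 6.24. A high normalized log2 level was 8.92 for Dnajb1 in untreated array D, where the other 3 arrays lay between 8.48 and 8.52. Another was 9.65 for Ero1a in untreated array D, where the other 3 arrays lay between 9.26 and 9.31. Another was 11.39 for Manf in 4 h array B, where the other 3 arrays lay between 11.23 and 11.24. Another was 12.16 for Serpinh1 in 4 h array D, where the other 3 arrays lay between 12.02 and 12.04.

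In wild type cells the response changed between 4 h and 8 h for 22 of the named genes that were called at 4 h, with log2 at 8 h less log2 at 4 h called by limma. Values above 0 were those of Ero1b (1.98), Rabepk (1.68), Creld2 (1.49), Dnajc3 (1.09), Sel1l (1.06), Pdia4 (0.98), Rcl1 (0.95), Wars (0.95), Stc2 (0.82), Manf (0.56), Ero1a (0.55), Derl1 (0.52) and Stx5a (0.48). Values below 0 were those of Nr4a1 (−3.21), Idi1 (−2.38), Id1 (−1.83), Ptger4 (−1.77), Nrep (−1.61), Synpo (−1.46), Gas1 (−0.92), Bcl6 (−0.85) and Txnip (−0.55). The adjusted p ranged from 2.19e-06 to 0.0391.

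Of 679 tested probe sets with no gene symbol or several, which stand outside the comparison, 9 were called (1.33%), 7 higher and 2 lower. The largest change went from 63.48 ± 17.9 to 732.1 ± 57.1 (3.46 log2, limma adjusted p = 8.67e-11).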

How the results depend on the processing

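The 121 calls (102 higher, 19 lower) depended on the processing more in number than in direction. Each array centred on its median gave 80 calls with 10 lower, a filter at the 60th percentile 10 lower, and the 8 compared arrays alone 70 (61 higher, 9 lower). The stricter filter also tested fewer genes, so a fall missing there may be untested rather than lost. Array weights gave 191 with 40 lower. With the array letter as a replicate block, 193 genes were called from the 8 arrays (51 lower) and 154 from all 24 arrays. Of these, 105 and 120 were among the 121. Without 4 h arrays A and C 53 were called (44 higher, 9 lower). Leaving out 1 array gave 62 to 115 calls, 55 to 90 higher and 7 to 25 lower. Over the 24 alternatives 35 genes, 32 higher and 3 lower, were called in each one that tested them. The 3 falls (Adm, St6gal1 and Fam102a) and some of the rises, such as Rabepk and Rad52, were tested in 23. Of the 121 calls 17 were lost in most alternatives. Each other setting gave a count within 1.5 times of 121. Of 2117 values of named genes 299 lost their call, 27 gained one and 13 changed sign, all of the latter in genes that were not called. These were Col1a1 (0.00 with the mean of its probe sets, 0.02 without 4 h arrays A and C, and −0.03 to 0.05 without 1 array), Dpagt1 (−0.05 with that mean), Gas5 (−0.16 with array weights, −0.07 to 1.03 without 1 array) and Serpinh1 (0.01 with array weights, 0.01 without 4 h arrays A and C, and −0.04 to 0.02 without 1 array). The cause was not tested. Among named genes, centring each array on its median ended the calls of Bcl6, Btg2, Cbx6, Ddit4, Derl1, Dnajb1, Dusp6, Ero1a, Gadd45b, Hmgcs1, Hspa5, Id1, Idi1, Myc, Psph, Slc3a2, Stx5a, Trappc1, Trp53i13, Wars and Xbp1 (adjusted p = 0.0558 to 0.557). The deposited scaling ended those of Bcl6, Cbx6, Ccdc117, Dnajb1, Dusp6, Hspa5, Psph, Stc2, Trappc1, Trp53i13 and Xbp1 (0.0501 to 0.111). Fitting the 8 arrays alone ended those of Alg2, Bcl6, Btg2, Cbx6, Ddit4, Derl1, Dnajb1, Eif2ak3, Elovl6, Ero1a, Ets2, Gadd45b, Gas1, Hmgcs1, Myc, Nrep, Psph, Stc2, Stx5a, Synpo, Traf2, Trappc1, Trp53i13, Wars and Xbp1 (0.0542 to 0.237). The mean of probe sets ended those of Cbx6, Derl1, Dusp6 and Ero1a (0.0819 to 0.379). Leaving out 4 h arrays A and C ended those of Alg2, Bcl6, Btg2, Cbx6, Ccdc117, Derl1, Dnajb1, Dnajc3, Dusp6, Eif2ak3, Ets2, Gadd45b, Hspa5, Id1, Idi1, Myc, Nfil3, Nr2f1, Nr4a1, Nrep, P2ry2, Psph, Snai2, Snhg1, Stc2, Stx5a, Synpo, Trappc1, Trp53i13, Wars and Xbp1 (0.0542 to 0.572). With 4 arrays a group the number of arrays limits the precision, and the median SE was 0.189 log2.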

Other observations

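Some of the largest rises belong to no list of the stress response. Siah2, a ubiquitin ligase gene, went from 114, 103.7, 94.1 and 162.9 to 424.2, 320.6, 344.5 and 453.6, a rise of 1.62 log2 (adjusted p = 1.39e-05 by limma). Rad52, a gene of homologous recombination, went from 67.3, 66.9, 67.4 and 69.9 to 233.1, 214.8, 161 and 179.6 (1.43, adjusted p = 8.76e-06), with untreated arrays almost equal to one another. Snai2, a repressor of epithelial genes, rose by 1.38 (adjusted p = 0.0133) from 938.1 ± 73.4 to 2434 ± 485, and the call ended in 2 of 8 fits that left out 1 array (adjusted p up to 0.0633, without 4 h array A). Ets2, an ETS factor, rose by 1.25 (adjusted p = 0.01), a call that ended without untreated array D (adjusted p = 0.0517). P2ry2, a nucleotide receptor gene, had 15.1, 42.4, 4.7 and 11.7 untreated and 156, 81.5, 72.5 and 55 at 4 h, with 3 untreated arrays under the filter signal of 27.7, and the call of its fitted rise of 2.13 (adjusted p = 0.0202) ended in 4 of 8 fits that left out 1 array (adjusted p up to 0.084, without untreated array C).

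Genes of the circadian clock and of splicing were looked at after their values were seen, so their counts are a description. Of 14 tested clock genes 2 rose (14.3%, against 1.79% of all tested genes). Arntl, which encodes the clock activator BMAL1, went from 311, 309.9, 262.5 and 299.5 to 732.2, 769.6, 629.6 and 752.6 (1.26, adjusted p = 1.99e-06), with arrays close together in each group. Nfil3, a clock-linked repressor, rose by 1.24 (adjusted p = 0.0017) from 312.3 ± 88.8 to 750.9 ± 200, a call that ended without 4 h arrays A and C together (adjusted p = 0.0824). The repressor gene Bhlhe40 was not called (−1.04, adjusted p = 0.114), except with the array letter as a block in the 8 arrays (adjusted p = 0.0101), with array weights (adjusted p = 0.0274) and in 1 fit that left out 1 array (adjusted p = 0.0459 without 4 h array C). Of 28 CLK kinases and splicing regulators 4 rose (14.3%, against 1.79% of all tested genes), with a median of 0.21 log2. The kinase gene Clk4 went from 112.2, 104.2, 178.2 and 90.2 to 335.1, 302.6, 239.9 and 290.8 (1.25, adjusted p = 0.00256), with untreated array C the highest untreated and 4 h array C the lowest treated array.

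The 4 falls whose 4 h change was not yet given ranged from −0.84 to −0.50 log2. Synpo, an actin-binding protein gene, fell by 0.84 log2 (adjusted p = 0.02), Trp53i13 by 0.53 (adjusted p = 0.0432), Trappc1, a vesicle tethering gene, by 0.53 (adjusted p = 0.0438) and Cbx6, a Polycomb gene, by 0.50 (adjusted p = 0.0432). None of the 4 calls held in all 8 fits that left out 1 array, with an adjusted p of up to 0.0841 for Synpo (without untreated array C), 0.203 for Trp53i13 (without 4 h array A), 0.205 for Trappc1 (without 4 h array A) and 0.15 for Cbx6 (without 4 h array A). They ended in 4 fits for Synpo and in 7 each for Trp53i13, Trappc1 and Cbx6. With the array letter as a block in the 8 arrays Trp53i13 was not called (adjusted p = 0.0983).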
